A study of Mus musculus with 21 samples.

Results

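The respiratory chain and ATP synthase are built from subunits of 5 complexes, and their mRNAs were followed here in the kidneys of female apoE KO mice. Members were all genes whose symbol in the deposited gene-name table carried the name stem of a subunit of NADH dehydrogenase (complex I), succinate dehydrogenase (complex II), the cytochrome bc1 complex (complex III), cytochrome c oxidase (complex IV) or ATP synthase (complex V). The rule matched 109 symbols, of which 93 had an Ensembl ID, out of 20634 genes present in both deposited tables. Of the 93, 7 are encoded by the mitochondrial genome, 82 are protein-coding genes of the nucleus (37 of complex I, 4 of complex II, 8 of complex III, 16 of complex IV and 17 of ATP synthase) and 4 are pseudogenes. The remaining 16 symbols, among them the 6 mitochondrially encoded genes mt-Co2, mt-Co3, mt-Atp6, mt-Atp8, mt-Nd3 and mt-Nd4l, had no Ensembl ID in that table and were not analysed here.

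All mice carried the apoE knockout on a C57BL/6J background, were female, started their diet at 4 weeks of age and were fed for 14 weeks, so that kidneys were taken at 18 weeks. There were 5 mice on control diet (Con), 6 on a diet with adenine (Ade), which injures the kidney tubules, and 6 on adenine together with iodomethylcholine (Ade + IMC), an inhibitor of the bacterial enzyme that releases trimethylamine from choline. No wild-type mice were included, and whole kidney was sequenced, so each value averages over all cell types of the organ. Mice are named by the number in their label. Levels are CPM, the count of a gene as a part of all gene counts of the mouse after TMM scaling, which corrects for a few genes taking up much of a library. Changes are log2 fold changes, and a gene was called where its adjusted p was under 0.1.

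Complexes I, III and IV pump protons out of the mitochondrial matrix as electrons pass from NADH to oxygen, complex II feeds in electrons from succinate without pumping, and ATP synthase uses the proton gradient to make ATP. The mitochondrial genome encodes a small number of hydrophobic core subunits of every complex except complex II, and all other subunits are encoded in the nucleus and imported. The kidney cortex is rich in mitochondria because proximal tubule cells, which have little glycolysis, drive solute reabsorption with ATP from respiration.

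The deposited tables held 5444833 to 11680809 counts per mouse over all genes. The kidney label was borne out by the markers: all 10 proximal tubule genes and all 7 genes of the thick ascending limb and distal tubule had counts in every mouse. Markers of cell types moved with the diet. The summed level of the 10 proximal tubule genes was 13706 to 19574 CPM in Con, 2047 to 8459 CPM in Ade and 3619.5 to 7371 CPM in Ade + IMC, and 9 of 9 tested genes fell in Ade (median log2 change -1.94). The 7 genes of the thick ascending limb and distal tubule summed to 10261 to 16641 CPM in Con, 4159.7 to 9537 CPM in Ade and 7161 to 11939 CPM in Ade + IMC, and in Ade 5 of them were called lower and 1 higher (median -0.79). The 8 macrophage and leukocyte genes summed to 181 to 219 CPM in Con, 1049 to 1749 CPM in Ade and 919.7 to 1821 CPM in Ade + IMC. All 8 of them, 7 of 7 fibroblast genes and 6 of 6 injured tubule genes rose in Ade. The part of this shift in the changes of the respiratory genes below was not tested, and in whole kidney fewer cells of a type and less RNA per cell cannot be told apart.

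In Ade kidneys, mRNAs of the respiratory chain and ATP synthase fell across all 5 complexes and both genomes. Of 14612 genes tested against Con, 32.2% were called lower and 35.1% higher, with a median log2 change of 0.02. Among the 79 nuclear subunit genes that passed the filter on low counts, 63 were called lower and 1 higher, with a median of -0.47, and all 7 mitochondrially encoded genes were called lower, with a median of -0.89. In 42 of the 79 nuclear genes and in 7 of 7 mitochondrially encoded genes every Ade mouse lay below every Con mouse, against 20.6% of all genes tested. Among the nuclear genes, Cox6a2, Atp5g2 and Atp5l had too few counts to be tested. The counts depend on the scaling: with scaling by the total count alone, an alternative chosen after the data were seen, the median of all genes moved to 0.32, and 27 nuclear genes were called lower and 4 higher. Relative to the median of all genes, the nuclear median was then -0.50 and the mitochondrially encoded median -0.91.

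The mitochondrially encoded mRNAs had a larger median change (log2 -0.89) than the nuclear genes of any complex (-0.31 to -0.77). The 7 genes took 10.9%, 10.9%, 10.5%, 11.3% and 10.1% of all gene counts in the 5 Con mice. In Ade mice the share ran from 5.88% to 8.09% with a median of 7.23%, and the groups did not overlap. The Ade + IMC mice spread more widely, from 5.28% in mouse 311 to 10.7% in mouse 412, with a median of 7.10%. Mouse 412 lay inside the Con range and the other 5 below it. Group means were 10.7% ± 0.455 (SD, n = 5) in Con, 7.07% ± 0.956 (SD, n = 6) in Ade and 7.42% ± 1.80 (SD, n = 6) in Ade + IMC. The labels do not say what the first digit of a mouse number stands for, and within digit 2 the means were 10.9%, 6.66% and 6.83% for Con, Ade and Ade + IMC, within digit 3 10.9%, 7.01% and 6.50%, and within digit 4 10.1%, 7.36% and 8.92%, from 1 to 3 mice each. The 82 nuclear genes together took 1.57% to 2.04% in Con, 1.21% to 1.54% in Ade and 1.11% to 1.65% in Ade + IMC.

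**Figure D1:**
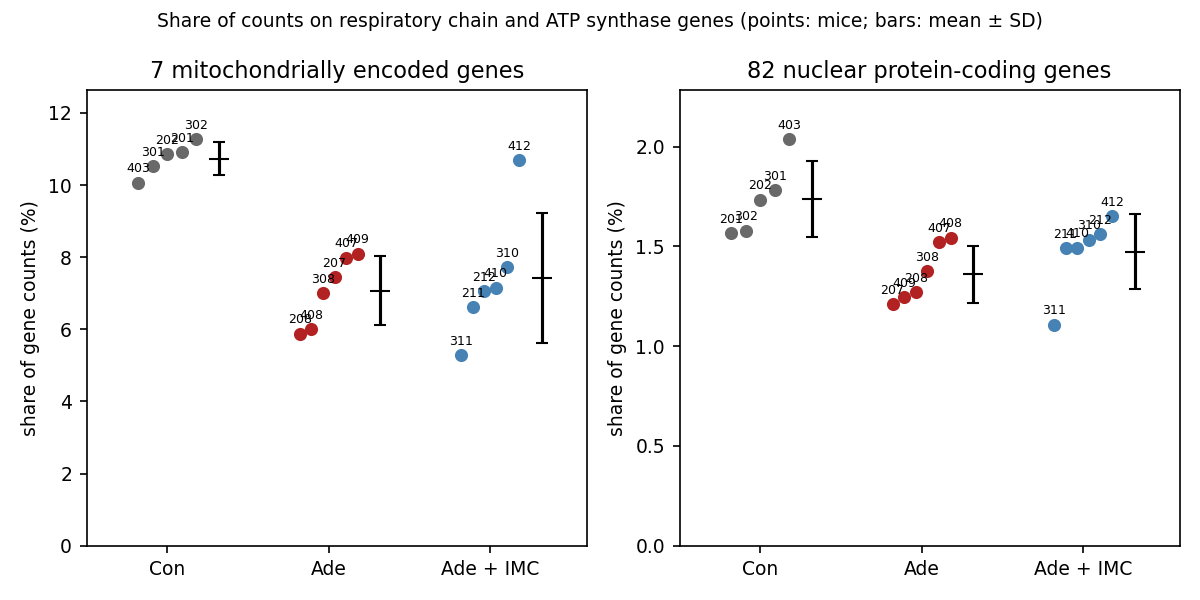
Share of all gene counts, in percent, on the 7 mitochondrially encoded genes (left) and the 82 nuclear protein-coding genes (right) in each mouse, with mouse numbers and the mean ± SD beside each group. On the left all Ade mice lie at or below 8.09% and all Con mice at or above 10.1%, while Ade + IMC mouse 412 reaches 10.7%.

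Summed counts on the mitochondrially encoded genes were 4.94 to 7.14 times those on the nuclear genes in Con, 3.89 to 6.50 times in Ade and 4.43 to 6.47 times in Ade + IMC. The ranges overlapped in all 3 groups, so this ratio did not separate the diets. Con mouse 403, with the highest nuclear share (2.04%) and the lowest mitochondrially encoded share of its group, set the lower end of the Con ratio.

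Among the single genes, mt-Nd2, a proton-pumping core subunit of complex I, changed most. Its level in the Con mice was 14374, 11906, 11199.9, 15212 and 10641 CPM. In Ade mice it was 3951 to 7541 CPM (median 5364), below every Con mouse, and the log2 change was -1.14 ± 0.19 (SE, adjusted p = 1.9e-04), a fall of 54.6%. mt-Nd4, mt-Nd1 and mt-Nd5, also membrane subunits of complex I, changed by -0.96, -0.89 and -0.83. mt-Cytb, the cytochrome b of complex III, stood at 32512, 32161, 30593, 34257 and 33630.0 CPM in Con and 13441 to 21019 CPM (median 17143) in Ade, a log2 change of -0.91 ± 0.17 (SE, adjusted p = 3.7e-04). mt-Co1, the catalytic subunit of cytochrome c oxidase that holds the site where oxygen is reduced, stood at 26817 ± 2346 CPM (SD, n = 5) in Con and 14969 ± 2783 CPM (SD, n = 6) in Ade, a log2 change of -0.82 ± 0.17 (SE, adjusted p = 0.0011). The smallest fall was in mt-Nd6, the only mRNA of the set transcribed from the opposite (light) strand, at -0.67 ± 0.16 (SE, adjusted p = 0.0029). Its level was 5329, 6146, 6134, 6513 and 4576 CPM in Con and 2748 to 4442 CPM (median 3596) in Ade, again with no overlap.

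Sequence shared with other annotated genes limits some of these values. Of all windows of 50 bases, the read length, 62.2% in mt-Nd4 and 51.1% in mt-Co1 also occurred in the transcript of another annotated gene, so their levels are less certain. In mt-Nd2 the share was 8.20% and in mt-Nd5 7.60%, and mt-Nd1, mt-Nd6 and mt-Cytb had no such window. All 7 genes fell, with and without this overlap.

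**Figure D2:**
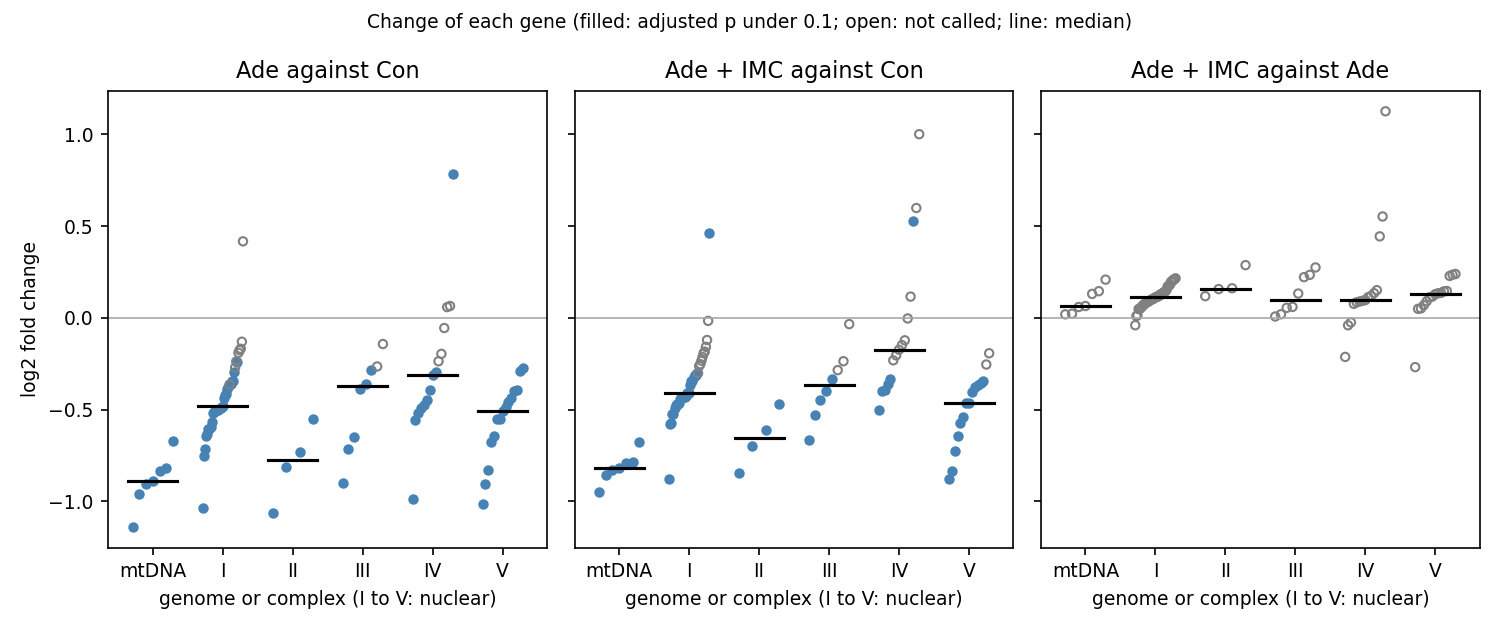
Log2 fold change of every tested gene in the 3 comparisons, by genome and complex, with filled points for adjusted p under 0.1, open points for genes not called and a line at the median. In Ade against Con and in Ade + IMC against Con nearly all points lie below 0, lowest for the mitochondrially encoded genes (medians -0.89 and -0.82), and no point is filled in Ade + IMC against Ade.

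Complex I, the entry point for electrons from NADH, had 37 nuclear genes tested, of which 29 were called lower and none higher (median -0.48). Ndufs1 (ENSMUSG00000025968, chr1:63143596-63176833 in GRCm38), the largest subunit, which carries iron-sulfur clusters, stood at 308, 257, 262, 298 and 303 CPM in Con. In Ade it was 103 to 177 CPM (median 138). The groups did not overlap, and the log2 change was -1.03 ± 0.13 (SE, adjusted p = 1.4e-05). Ndufv1, which binds the flavin that accepts electrons from NADH, changed by -0.75 ± 0.11 (SE, adjusted p = 7.5e-05), from 306 ± 35.9 CPM (SD, n = 5) to 179 ± 26.6 CPM (SD, n = 6). Ndufa9, an accessory subunit that holds a nucleotide cofactor, changed by -0.71 ± 0.10 (SE, adjusted p = 5.8e-05). The least change was in the small accessory subunit Ndufa2, at 61.0 to 91.5 CPM (median 78.4) in Ade against 70.9, 80.3, 84.5, 77.0 and 117 CPM in Con, where the groups overlapped and the log2 change was -0.13 ± 0.14 (SE, adjusted p = 0.45). The calls by role were close: 6 of the 7 nuclear genes of the catalytic core that is shared with bacteria were called lower (median -0.52), and 22 of 28 accessory genes (median -0.42).

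All 4 genes of complex II, which is also an enzyme of the citric acid cycle and has no mitochondrially encoded part, were called lower. Sdha (ENSMUSG00000021577, chr13:74322254-74350280), the flavoprotein that oxidises succinate, had the largest fall of any tested nuclear subunit gene. It stood at 1033, 996, 944, 1114 and 1027 CPM in Con and at 457, 358, 345, 654, 564 and 513 CPM in the Ade mice numbered 207, 208, 308, 407, 408 and 409. The lowest Con mouse was above the highest Ade mouse, and the log2 change of -1.07 ± 0.15 (SE, adjusted p = 5.6e-05) is a fall of 52.2%. Sdhb, the iron-sulfur subunit, changed by -0.81 ± 0.13 (SE, adjusted p = 9.2e-05). The membrane anchors Sdhd and Sdhc changed by -0.73 ± 0.10 (SE, adjusted p = 3.3e-05) and -0.55 ± 0.13 (SE, adjusted p = 0.002). For each of the 4 genes every Ade mouse lay below every Con mouse.

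In complex III, which passes electrons from ubiquinol to cytochrome c, 6 of 8 nuclear genes were called lower (median -0.37), and the change differed by subunit. The large core protein gene Uqcrc2 stood at 442, 415, 442, 457 and 499.6 CPM in Con and 191 to 307 CPM (median 223) in Ade, with no overlap and a log2 change of -0.90 ± 0.12 (SE, adjusted p = 2.3e-05). Uqcrfs1, the Rieske iron-sulfur protein that takes the electron from ubiquinol, changed by -0.71 ± 0.11 (SE, adjusted p = 1.2e-04) and the other core protein, Uqcrc1, by -0.65 ± 0.12 (SE, adjusted p = 3.2e-04). Of the 5 small subunits 3 were called lower (median -0.28). Uqcrq, a small subunit that contacts cytochrome b, stood at 113 to 179 CPM (median 150.3) in Ade against 135, 161, 149.8, 148 and 224 CPM in Con, which overlap, with a log2 change of -0.14 ± 0.15 (SE, adjusted p = 0.44).

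Complex IV had the smallest nuclear median with the members grouped by name. Its catalytic subunits are mitochondrially encoded, and its nuclear subunits surround and regulate that core. Of 15 tested genes 9 were called lower and 1 higher (median -0.31). The 10 common subunits alone had a median of -0.35, close to the -0.37 of complex III, and the 4 tested tissue or condition specific forms -0.20. Cox4i1, the common form of subunit 4, stood at 612, 680.0, 690.3, 613 and 811 CPM in Con and 388 to 549 CPM (median 467) in Ade, with a log2 change of -0.52 ± 0.13 (SE, adjusted p = 0.003). Cox7a2, the common form of subunit 7a, changed by -0.55 ± 0.13 (SE, adjusted p = 0.0022). For Cox7a2l, which helps to join complex III and complex IV into supercomplexes, the level was 42.3 to 54.3 CPM (median 46.7) in Ade and 45.0, 51.3, 50.1, 48.2 and 55.7 CPM in Con. These values overlap, and the log2 change was -0.06 ± 0.08 (SE, adjusted p = 0.59), or 0.24 and called higher when scaled by the total count alone.

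All 15 tested nuclear genes of ATP synthase were called lower (median -0.51), in the head, the stalk and the membrane part alike. Atp5b (ENSMUSG00000025393, chr10:128083273-128090391), the catalytic beta subunit of the F1 head, stood at 2758, 2725, 2727, 2821 and 3008 CPM in Con and at 1270.1, 1095, 1056, 1857, 1620.1 and 1329.7 CPM in the Ade mice in the order of their numbers above. The Con values spanned a narrow range and the highest Ade mouse lay far below them. The log2 change of -1.01 ± 0.15 (SE, adjusted p = 6.7e-05) is a fall of 50.4%. Its partner in the catalytic ring, Atp5a1, changed by -0.91 ± 0.15 (SE, adjusted p = 1.5e-04), and Atp5f1, the b subunit of the peripheral stalk that holds the head in place, by -0.83 ± 0.12 (SE, adjusted p = 4.0e-05). The smallest change was in Atp5e, the epsilon subunit of the central stalk, at -0.27 ± 0.13 (SE, adjusted p = 0.076). Its Ade mice (97.3 to 144 CPM (median 131)) overlapped with Con (143, 139.8, 159, 132 and 200.3 CPM). The call of Atp5e was lost in 6 alternatives and also when scaled by the total count alone, where its change was 0.02.

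**Figure D3:**
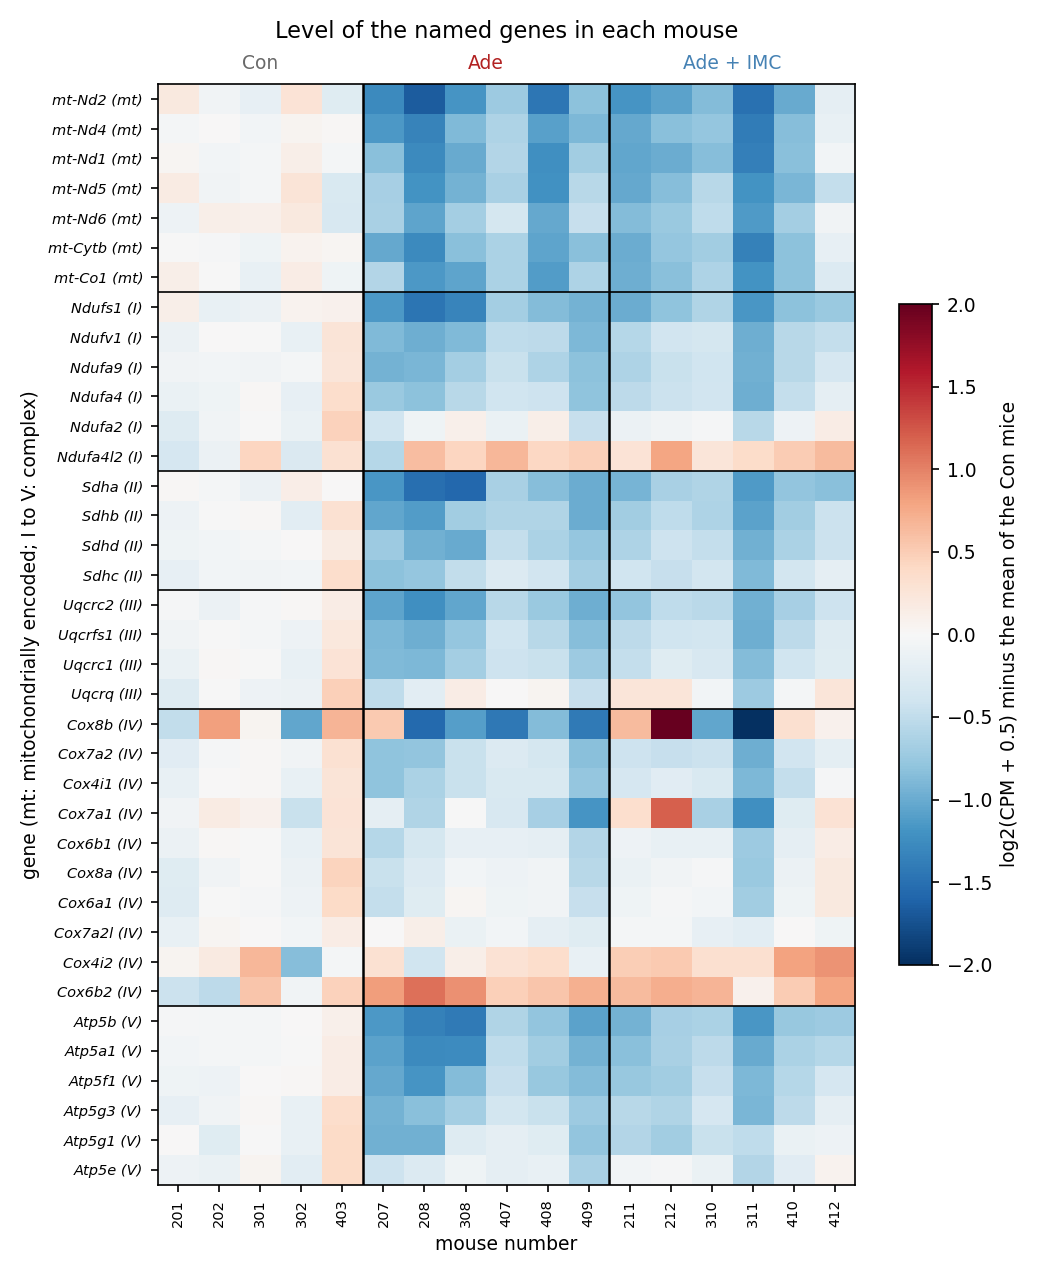
Level of each named and tested gene in each of the 17 mice as log2(CPM + 0.5) minus the Con mean, with mitochondrially encoded genes at the top and nuclear genes by complex below. Blue is below and red above Con, colours stop at 2 on either side, and Cox8b lies beyond that in mouse 212 (above) and in mouse 311 (below). Most genes are lower in all 6 Ade mice, and mouse 311 is the lowest Ade + IMC mouse in most rows.

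Across the nuclear genes the size of the fall followed the size of the protein encoded. Over the 79 tested genes, the log2 change in Ade and the coding length had a Spearman rho of -0.60, against -0.04 over 13755 protein-coding genes tested. The 26 shortest genes, coding for up to 315 bases, had a median of -0.34 with 18 called lower, the middle 27 a median of -0.42 with 20 called lower, and the 26 longest, from 516 to 2181 bases, a median of -0.64 with 25 called lower. All tested genes within the same 3 ranges of length had medians of 0.02, 0.07 and 0.02. The longer genes include many catalytic and core subunits, beside accessory ones such as Ndufa10 and Ndufv3. They also had higher CPM, which is not divided by length: the change and the mean log2 level in Con had a rho of -0.59 over the 79 genes and -0.52 over all protein-coding genes. These correlations are across genes of the same mice, which are not independent, the level in Con also enters the change, and the relation to length was chosen after the data were seen. For the change of Ade + IMC against the same Con mice, the rho with length was -0.58.

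**Figure D4:**
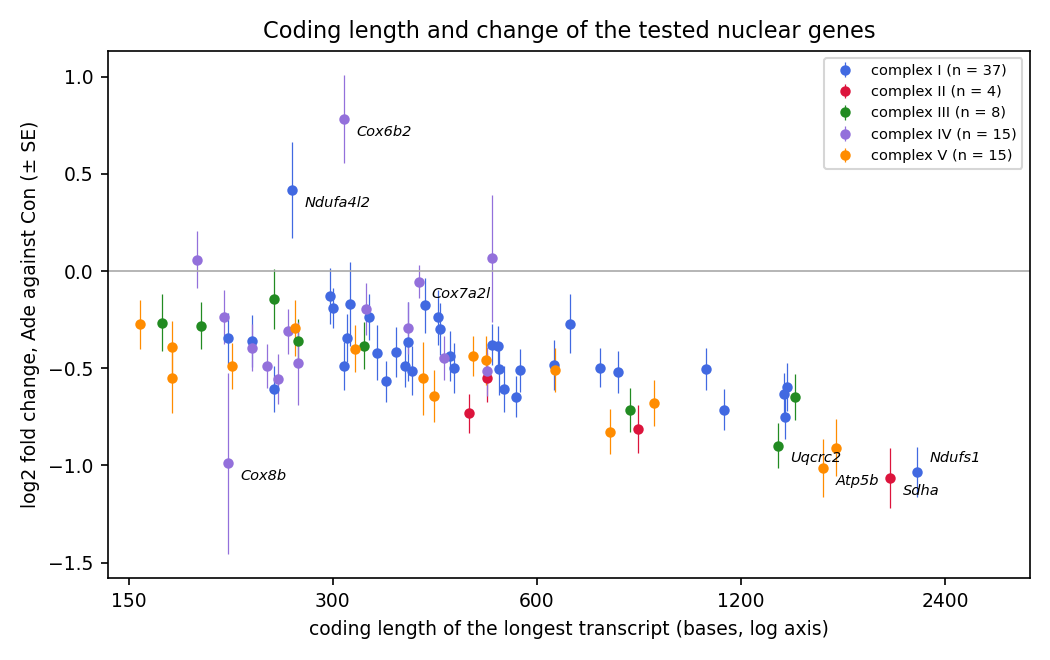
Log2 fold change in Ade against Con (± SE) and coding length in bases (log axis) for the 79 tested nuclear genes, coloured by complex. The longest genes, Sdha and Ndufs1, lie at -1.07 and -1.03, while the 26 shortest genes spread from Cox8b at -0.99 to Cox6b2 at 0.78.

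Subunits that exist in tissue or condition specific forms did not all move with the rest. Cox6b2 (ENSMUSG00000051811, chr7:4751792-4753094), a form of subunit 6b best known from testis, was the only nuclear subunit gene called higher in Ade. It stood at 4.04, 3.75, 8.53, 5.33 and 7.97 CPM in Con and 7.98 to 12.6 CPM (median 9.99) in Ade. Con mouse 301, the highest of its group, lay inside the Ade range and the other 4 below it, and the log2 change was 0.78 ± 0.23 (SE, adjusted p = 0.0087). Its common partner Cox6b1 changed by -0.31 ± 0.11 (SE, adjusted p = 0.029). Per 1000 exonic bases, Cox6b1 was at 491 CPM and Cox6b2 at 5.35 CPM in Con, and at 389.8 and 9.04 CPM in Ade. Ndufa4l2, a paralog of Ndufa4 known to rise in hypoxia, stood at 3.53, 4.19, 6.37, 3.64 and 5.75 CPM in Con and 2.92 to 7.58 CPM (median 6.46) in Ade, with a log2 change of 0.42 ± 0.25 (SE, adjusted p = 0.16). Leaving out Ade mouse 207, its lowest, or Con mouse 301, its highest, made it a call (0.57 and 0.55). Ndufa4 itself, counted here with complex I by its name and since placed in complex IV, changed by -0.61 ± 0.12 (SE, adjusted p = 6.1e-04).

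Cox4i2, the lung and hypoxia form of subunit 4, was low and did not pass the test (0.07 ± 0.33 (SE, adjusted p = 0.88)). The common forms Cox6a1 and Cox8a changed by -0.20 ± 0.13 (SE, adjusted p = 0.22) and -0.24 ± 0.14 (SE, adjusted p = 0.15), neither past the threshold. Cox8a was called lower without Con mouse 201 and with a block for the leading digit of the mouse numbers, and both genes were above 0 when scaled by the total count alone. The muscle form Cox6a2, at 0.271 to 0.749 CPM (median 0.478) in Ade and 1.11, 0.578, 0.813, 0.649 and 1.05 CPM in Con, was too low to be tested. Of the 3 genes that encode the same c subunit of the ATP synthase rotor, Atp5g3 stood at 306, Atp5g1 at 2.55 and Atp5g2 at 0.432 CPM per 1000 exonic bases in Con. Atp5g3 changed by -0.64 ± 0.13 (SE, adjusted p = 8.9e-04) and Atp5g1 by -0.55 ± 0.19 (SE, adjusted p = 0.022). The values of Atp5g2 and Atp5g1 are uncertain, since 38.3% and 11.1% of their 50-base windows occur in other genes, against 0.0% for Atp5g3. Exonic bases are those of all annotated transcripts, 4912 in Atp5g1 and 2181 in Atp5g3, so levels per base depend on the annotation.

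For the muscle and brown fat forms Cox8b and Cox7a1, the calls in Ade changed with the mice and settings used. In Con, Cox8b stood at 3.84, 10.3, 5.82, 2.47 and 9.28 CPM, and in Ade at 1.59 to 8.26 CPM (median 2.07), with mouse 207 highest. The log2 change of -0.99 ± 0.47 (SE, adjusted p = 0.081) was called, but the call was lost in 10 alternatives, 8 of them leaving out 1 mouse, and on leaving out single mice the change ranged from -1.57 without Ade mouse 207 to -0.75 without Con mouse 202. In Ade + IMC the level ran from 0.680 CPM in mouse 311 to 51.1 CPM in mouse 212, and the log2 change against Con went from 1.001 to -0.36 without mouse 212. Cox7a1 ran from 6.75 to 11.5 CPM in Con and 3.87 to 9.36 CPM (median 6.73) in Ade, where the groups overlapped. Its call in Ade (-0.47 ± 0.21 (SE, adjusted p = 0.068)) was lost in 10 alternatives too, 6 of them leaving out 1 mouse, with changes from -0.58 to -0.35 when single mice were left out. In Ade + IMC it was highest in mouse 212, at 22.2 CPM, against 3.74 to 11.9 CPM in all other mice of the 3 groups. Ucp1, the uncoupling protein that defines brown fat, was at 379 CPM in mouse 212, 81.7 in 211, 81.0 in 410, 76.8 in 207 and below 10 CPM in the other 13 mice. With Cidea, Plin1 and Adipoq it formed a list of 4 adipocyte genes added after the data were seen, which summed to 0.303 to 19.8 CPM in Con, 0.406 to 141 CPM in Ade and 0.138 to 682 CPM in Ade + IMC. Plin1 had no count in 7 mice and Adipoq none in 6. The part of these cells in the levels of Cox8b and Cox7a1 was not tested.

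**Figure D5:**
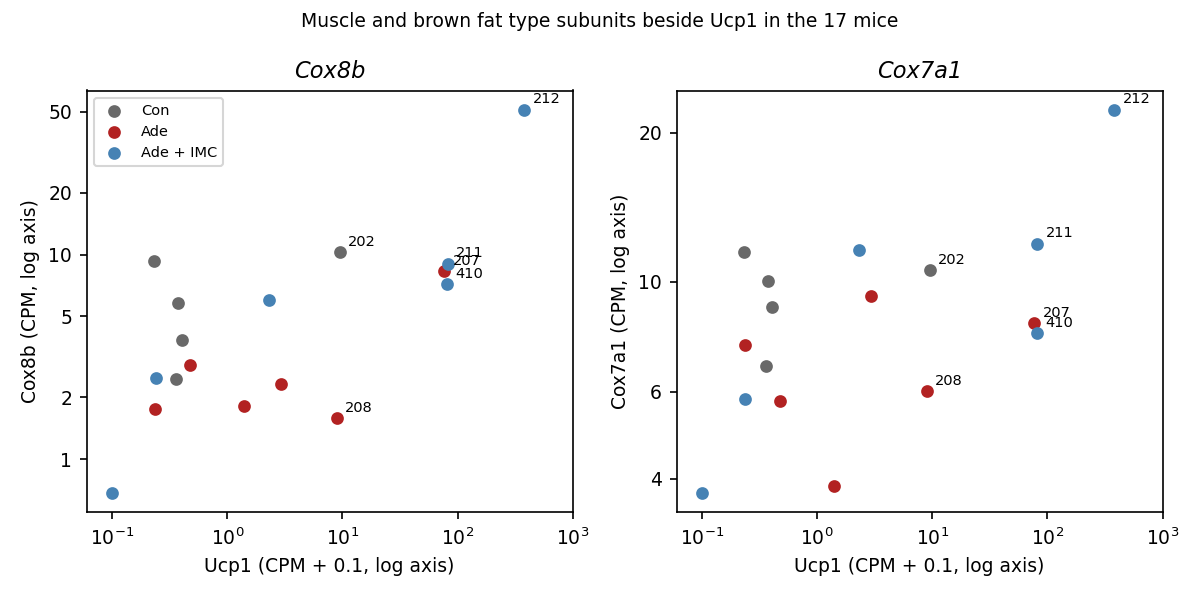
Level of Cox8b (left) and Cox7a1 (right) in CPM against Ucp1 (CPM + 0.1), log axes, 1 point per mouse coloured by diet, with numbers on mice above 5 CPM of Ucp1. Mouse 212 is highest on all axes, with 379 CPM of Ucp1 and 51.1 CPM of Cox8b.

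In Ade + IMC kidneys most of these mRNAs were again lower than in Con. The Con mice are shared with the comparison above. Of 14578 genes tested, 32.3% were called lower and 30.9% higher. Of the 79 nuclear genes 53 were called lower and 2 higher (median -0.38, against -0.02 for all genes), and all 7 mitochondrially encoded genes were called lower (median -0.82). Scaled by the total count alone, 14 nuclear genes were called lower and 4 higher, with the median of all genes at 0.27 and the nuclear median -0.36 relative to it. Cox8b and Cox7a1, at -0.99 and -0.47 in Ade, were above 0 here and not called. Without mouse 212 both were below 0, Cox7a1 at -0.25. Atp5md, a small membrane subunit of ATP synthase named after its values were seen, changed by -0.88 ± 0.16 (SE, adjusted p = 5.2e-04) here and -0.55 ± 0.18 (SE, adjusted p = 0.015) in Ade. By complex the genes called lower numbered 26 of 37, 4 of 4, 5 of 8, 5 of 15 and 13 of 15. Sdha was at 538, 654, 673, 466, 589 and 570.4 CPM in the Ade + IMC mice numbered 211, 212, 310, 311, 410 and 412. All were below the lowest Con mouse, and the log2 change was -0.84 ± 0.10 (SE, adjusted p = 2.3e-05). Ndufs1 changed by -0.88 ± 0.10 (SE, adjusted p = 9.1e-06), Atp5b by -0.83 ± 0.12 (SE, adjusted p = 6.5e-05), mt-Nd2 by -0.95 ± 0.22 (SE, adjusted p = 0.0025) and mt-Co1 by -0.79 ± 0.19 (SE, adjusted p = 0.0035). The 2 genes called higher were Cox6b2 (0.53 ± 0.23 (SE, adjusted p = 0.065)) and Ndufa4l2 (0.46 ± 0.19 (SE, adjusted p = 0.055)), and each call was lost on leaving out Con mouse 201, 202 or 302 or Ade + IMC mouse 212. Cox4i2, a gene of few counts, was not called here but was called higher in 5 alternatives, among them scaling by the total count.

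Between Ade + IMC and Ade themselves, no member passed the test, and neither did any other of the 14696 genes tested by limma (0%). At an unadjusted p under 0.05, 2 of 79 nuclear genes were higher and none lower, while 3.37% of all genes were higher and 3.35% lower. Counted on the recovered reads, edgeR called 0 members and 0 of all genes, and DESeq2 called 0 members and 37 of all genes. The study itself reported DESeq2 calls in both directions for these groups at an adjusted p under 0.1. Mitochondria were among its clusters of genes higher in Ade + IMC. Why those calls differ from the ones here was not tested. With a block for the leading digit of the mouse numbers, limma called 0 members and 133 of all genes. The 2 nuclear genes were Uqcrc2, at 230.2 to 338 CPM (median 297) in Ade + IMC against 191 to 307 CPM (median 223) in Ade, and Cox4i2, at 1.80 to 2.93 CPM (median 2.12) against 0.909 to 1.87 CPM (median 1.63). Both pairs of ranges overlap. Their log2 changes, on the scale of log2(normalized count + 1), were 0.28 ± 0.12 (SE, adjusted p = 0.72) and 0.55 ± 0.23 (SE, adjusted p = 0.72). How many nuclear genes reached that unadjusted level depended on the mice: 21 without Ade + IMC mouse 311, 10 without Ade mouse 407, 8 with that block, and 0 without Ade + IMC mouse 412 or 410 or Ade mouse 208 or 409.

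The changes between these groups were small and mostly positive. The log2 change was above 0 in 74 of 79 nuclear genes and in 7 of 7 mitochondrially encoded genes, while it was above 0 in 51.6% of all genes tested. Medians were 0.12 for nuclear and 0.06 for mitochondrially encoded genes, beside 0.01 for all genes. All of them were measured in the same 12 mice and are not independent. The nuclear median ranged from 0.06 to 0.20 when single mice were left out, and the mitochondrially encoded median from -0.04 to 0.16. For Sdha the difference was 0.29 with a 95% interval of -0.04 to 0.62, and for Atp5b 0.24 with an interval of -0.10 to 0.57. For mt-Co1 it was 0.06, with an interval of -0.58 to 0.69. Each of these intervals includes 0. The spread in Ade + IMC was set at its ends by mouse 412, where mt-Nd1 was at 17589.7 CPM against 7111 CPM in mouse 311 and 18692, 17584, 17728, 19761 and 17719 CPM in Con. In mouse 412 the 8 leukocyte genes summed to 919.7 CPM and in mouse 311 to 1821 CPM, the lowest and the highest of that group, while the proximal tubule genes summed to 7371 and 3619.5 CPM, the highest and the lowest. The part of this difference in the respiratory mRNAs was not tested.

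The promoters of nuclear subunit genes are known for sites of the factors NRF1, GABPA (an ETS factor) and ESRRA, which tune respiratory genes to energy demand. RefSeq promoters of 300 bases (250 before and 50 after the gene start) could be matched for 67 of the 82 nuclear genes. The core letters of the NRF1 motif, GCGCATGC, occurred on either strand in 10 of the 67 genes, or 13.9% of their 72 promoters, against 2.71% of 32851 promoters of all genes. For the ETS motif, CCGGAAGT, the shares were 6.94% and 3.89%, and for the ESRRA motif, AAGGTCA, 11.1% and 4.72%. None of the motifs contains another of them. Genes with the NRF1 letters had a median log2 change in Ade of -0.43 (n = 8) and those without -0.47 (n = 57). With the ETS letters the medians were -0.36 and -0.48, and with the ESRRA letters -0.36 and -0.48. A match of letters is a description and does not show that a factor binds.

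For 4 genes the promoter is shown to let the letters be seen beside the changes, with matched letters of the 3 motifs in capitals, each read 5′ to 3′ on the strand of the gene from RefSeq (GRCm38.p6). Sdhb (chr4:140961021-140961320, plus strand) is the gene with the largest fall among the tested genes with the NRF1 letters. Ndufs3 (chr2:90904672-90904971, minus strand; log2 change -0.52) is that with the largest fall among the tested genes with the ETS letters, and Sdhd (chr9:50603800-50604099, minus strand) among the tested genes with the ESRRA letters. Atp5k (chr5:108434350-108434649, minus strand; log2 change -0.49), a membrane subunit of ATP synthase, holds 2 of the motifs, with the NRF1 letters on both strands overlapping each other.
Sdhb: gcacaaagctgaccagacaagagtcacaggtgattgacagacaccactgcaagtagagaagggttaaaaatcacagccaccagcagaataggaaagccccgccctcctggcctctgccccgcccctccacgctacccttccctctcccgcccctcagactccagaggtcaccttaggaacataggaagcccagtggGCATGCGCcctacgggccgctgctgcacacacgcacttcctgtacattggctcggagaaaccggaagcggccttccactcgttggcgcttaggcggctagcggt
Ndufs3: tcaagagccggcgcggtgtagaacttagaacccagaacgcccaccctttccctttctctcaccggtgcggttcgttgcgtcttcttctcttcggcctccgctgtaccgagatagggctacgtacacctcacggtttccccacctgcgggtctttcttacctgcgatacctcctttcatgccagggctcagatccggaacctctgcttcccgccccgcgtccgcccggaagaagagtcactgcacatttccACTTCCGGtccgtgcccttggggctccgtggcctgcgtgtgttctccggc
Sdhd: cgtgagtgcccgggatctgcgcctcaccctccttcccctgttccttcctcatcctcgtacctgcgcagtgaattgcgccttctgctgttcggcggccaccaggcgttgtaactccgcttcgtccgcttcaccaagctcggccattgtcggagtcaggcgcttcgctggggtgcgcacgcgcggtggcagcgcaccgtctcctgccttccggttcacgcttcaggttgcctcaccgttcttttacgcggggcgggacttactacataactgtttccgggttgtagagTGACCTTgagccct
Atp5k: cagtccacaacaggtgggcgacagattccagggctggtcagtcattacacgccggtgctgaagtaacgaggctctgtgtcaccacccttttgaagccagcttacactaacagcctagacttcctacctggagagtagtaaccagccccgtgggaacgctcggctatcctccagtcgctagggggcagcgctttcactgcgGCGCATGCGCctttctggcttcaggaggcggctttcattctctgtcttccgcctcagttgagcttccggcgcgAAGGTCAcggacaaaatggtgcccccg

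Genes that serve the respiratory chain were examined as lists in Ade, where 32.2% of all genes tested were called lower and 35.1% higher. Among factors that assemble the complexes, 23 of 44 tested genes were called lower and 1 higher (median -0.28). Acad9, which is needed to build complex I, fell by most of these, at -1.14 ± 0.13 (SE, adjusted p = 7.6e-06), and Tmem70, which aids the assembly of ATP synthase, changed by -0.84, while Uqcc2, a factor for complex III, was higher at 0.27 ± 0.12 (SE, adjusted p = 0.069). For the machinery that copies and transcribes mitochondrial DNA, 12 of 19 tested genes were called lower and 0 higher (median -0.35). Tfam, which packages and activates that DNA, changed by -0.49, Lrpprc, which stabilises its mRNAs, by -0.89, and the RNA polymerase Polrmt by -0.32. These falls can be set beside the median of -0.89 for the mitochondrially encoded mRNAs themselves.

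In the list of electron carriers and coenzyme Q enzymes, 14 of 18 tested genes were called lower and 1 higher (median -0.66), with Cycs, which encodes cytochrome c, at -1.06 and Etfdh, which hands electrons from fat oxidation to ubiquinone, at -0.95. All 14 citric acid cycle genes were called lower (median -0.76). Of the carriers of adenine nucleotides, phosphate and protons, 5 of 9 tested genes were called lower and 2 higher, a split over few genes. The ADP/ATP carrier Slc25a5 changed by -0.79, and the carriers called higher were Ucp2, which is also abundant in macrophages, at 1.66, and Ucp1, whose level rests on a few mice as given above. For glycolysis, 7 of 14 tested genes were called lower and 3 higher (median -0.22), beside 32.2% and 35.1% of all genes, with the hexokinase Hk2 at 4.12 ± 0.44 (SE, adjusted p = 3.9e-06).

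Among 12 regulators of mitochondrial content, 7 were called lower and 3 higher, beside the same 32.2% and 35.1%. Ppargc1a, the coactivator that drives mitochondrial biogenesis in tubules, changed by -1.18 ± 0.14 (SE, adjusted p = 8.8e-06), Ppara, a receptor that activates fat oxidation, by -1.98 ± 0.23 (SE, adjusted p = 9.1e-06), and Esrra, the nuclear receptor whose letters were searched above, by -0.65 ± 0.11 (SE, adjusted p = 1.9e-04). Gabpa changed by -0.58 and was called lower, but its exons overlap those of the subunit gene Atp5j on the opposite strand, and whether strand was used in counting is not given in the sources used here. Nrf1 and Pprc1 were called higher, at 0.43 and 1.03. In Ade + IMC against Ade 0 genes of all these lists were called.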

How the data were processed

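Kidney RNA of 17 mice (5 Con, 6 Ade, 6 Ade + IMC) had been sequenced with 50-base single reads. The 4 Con + IMC mice were not analysed here. For Con and Ade the deposited table holds raw counts per gene. For Ade and Ade + IMC it holds normalized counts (signal), which the authors made by dividing counts by DESeq2 size factors. Submitters' processing notes name Trimmomatic 0.39, Bowtie2 2.2.5 and HTSeq 0.9.1, while the study's methods name STAR as the aligner and mm10 as the genome. Whether strand was used is not given in the sources used here. A further deposited table, used here for gene names, also holds the authors' fold changes and p-values for their own comparison, which were not used.

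In each mouse, all normalized counts are whole-number multiples of a single step (100% of values above 0, tolerance 1e-06), so whole reads were recovered for Ade + IMC. In the Ade mice recovered and raw counts differed at 0 values. Ade against Con and Ade + IMC against Con were tested on counts with edgeR 4.0.16 (quasi-likelihood test, TMM, filterByExpr), and Ade + IMC against Ade on log2(normalized count + 1) with limma 3.58.1 for genes with a mean of at least 10, in R 4.3.3. All genes entered each fit, and p-values were adjusted over all of them by Benjamini-Hochberg. CPM with TMM factors describe all 17 mice over 20634 genes, and sums, shares and ratios over members got no p. Mice are separate animals, and no pair of libraries of a group agreed within counting noise. The fits were tested on simulated data with a small set of genes changed in both directions. That setting has no broad shift of the library, so it cannot speak to the choice of scaling.

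Genes named are the mitochondrially encoded members, in each complex the 3 nuclear genes with the largest fall and the 1 with the smallest change in Ade, those called higher, the tissue or condition specific forms, complex II, and those with an unadjusted p under 0.05 between Ade + IMC and Ade. Members and lists were chosen with earlier results of these data known, and the grouping by role, the coding lengths and the adipocyte list were added after the values were seen. Coordinates, lengths and shared windows come from GENCODE vM21 (GRCm38). Alternatives were DESeq2 1.42.0, other scalings, filters, pseudocounts, a block for the leading digit of the mouse numbers and leaving out each mouse.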

Additional observations from a re-analysis of the deposited data

Results flagged for a closer look

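Within each group of 5 or 6 mice, the highest or lowest value was marked where its gap to the nearest other mouse was large for the range of the group (Dixon's test at its 95% level). Of 150 groups of values examined for the named genes, the shares and the levels by complex, 20 were marked, and chance alone marks about 1 in 20. Many of the values come from the same mice, so the marks are not independent.

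Con mouse 403 stood high in nuclear subunits. Atp5a1 was at 2717 CPM there against 2364 to 2431 CPM in the other Con mice, Cox8a at 414 against 258 to 303, Ndufa9 at 276 against 221 to 226, Sdhc at 519 against 362 to 392, Uqcrfs1 at 422 against 341 to 362 and Uqcrq at 224 against 135 to 161. Its mean log2 level relative to the Con mean was 0.21 for complex II and 0.35 for the nuclear genes of complex III, where the other Con mice lay from -0.09 to -0.03 and from -0.16 to -0.03. Con mouse 301 was low in Atp5g2, at 0.135 CPM against 0.779 to 1.01, a level of few counts.

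Ade mouse 207 was high in Cox8b (8.26 CPM against 1.59 to 2.87) and low in Ndufa4l2 (2.92 CPM against 6.24 to 7.58).

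Ade + IMC mouse 412 was high in mt-Nd1 (17590 CPM against 7111 to 10212), mt-Nd2 (11014 CPM against 4438 to 6900) and Cox6a2 (1.17 CPM against 0.286 to 0.484), and its counts on mitochondrially encoded genes were 6.47 times those on nuclear genes, against 4.43 to 5.04 in the other mice of the group. Mouse 311 was low in the share of counts on nuclear subunit genes (1.11% against 1.49% to 1.65%) and in mean log2 level relative to Con over all nuclear subunit genes (-0.82 against -0.32 to -0.06), complex II (-1.01 against -0.66 to -0.47) and complex III (-0.86 against -0.32 to -0.07). Mouse 212 was high in Cox8b, at 51.1 CPM against 0.680 to 9.03. No cause of these values was tested.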

How the results depend on the processing

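No paired analysis was possible because no mouse number occurs in more than 1 group. All 7 mitochondrially encoded genes stayed called lower against Con in Ade and in Ade + IMC under every alternative that kept them in the fit. Scaling by the total count, chosen after the data were seen, moved the nuclear counts most: in Ade to 27 lower and 4 higher (median log2 change -0.18, mitochondrially encoded -0.60), with 2497 of all genes lower and 7990 higher, and in Ade + IMC against Con to 14 lower and 4 higher (median -0.088), with 2247 of all genes lower and 7531 higher. Higher calls then made up 76.2% and 77.0% of calls, against 52.2% and 48.9% with TMM. The change of Atp5e in Ade turned to 0.021 and that of Cox7a2l to 0.24 (Ade) and 0.17 (Ade + IMC). Without single mice, 54 to 68 nuclear genes were called lower and 1 to 2 higher in Ade, and 46 to 58 lower and 0 to 3 higher in Ade + IMC against Con. Between Ade + IMC and Ade 0 members were called in any alternative. All genes called there numbered 37 with DESeq2 on recovered reads and 133 with a block for the leading digit of the mouse numbers. Nuclear genes higher at an unadjusted p under 0.05 numbered 8 with that block and 0 to 21 without single mice. As a percentage of the counts on nuclear genes alone, mitochondrially encoded counts had means of 12.1% in Con, 7.66% in Ade and 8.10% in Ade + IMC. The ranges were 11.3% to 12.8%, 6.27% to 8.86% and 5.60% to 12.1%, so Con and Ade again did not overlap. The cause of these shifts was not tested. Depth limits the genes of few counts: Cox6a2, Atp5g2 and Atp5l had under 2 CPM in every mouse.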
